A study of Mus musculus with 8 samples.

Results

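The genes described here are Myl9, the regulatory light chain of smooth muscle and non-muscle myosin II, and 8 genes linked to it through the actomyosin cytoskeleton: Myh9, Acta2, Tagln, Cnn1, Tpm1, Tpm2, Ccn1 and Ccn2. They were taken by name, as every probe of the array whose platform symbol is one of these 9, which gave 24 of 45281 probes and 9 of 18300 named genes. Myl9 and Ccn1 were selected on their measured intensities, which read lower with both shRNAs against Mp1 than with control shRNAs in FGF4, so the values of all members in that comparison are a description without a test. Myl9 and Ccn1 also carry no test wherever the FGF4 arrays with control shRNAs enter.

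In actomyosin, bipolar filaments of myosin II pull on actin filaments, and phosphorylation of the regulatory light chains by myosin light chain kinase switches the motor on. Tropomyosins lie along the actin filament and set which myosins and severing proteins can reach it, while calponin and transgelin bundle or stabilise it. Actin assembly also feeds back to the nucleus: it releases MRTF to act with SRF at CArG boxes, and tension on actin lets YAP and TAZ act with TEAD factors, for which Ccn1 and Ccn2, 2 secreted matricellular proteins, are widely used target genes. In mouse ES cells, FGF4 is the main autocrine activator of ERK and a known requirement for leaving self-renewal.

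The study profiled mouse Fgf4-/- ES cells of the R1 line (derived from the mouse strains 129X1/SvJ and 129S1, the second with the alleles SV-+p+Tyr-cKitlSl-J/+), infected with knockdown vectors, on Illumina bead arrays at day 3. Every culture had spent the night before treatment in N2B27, a serum-free medium, to which BMP4 was added at 10 ng/ml, and all carried the Fgf4 deletion and an shRNA vector. Cells with shMp1Lib or shMP1G, both directed at Mp1, received FGF4 at 20 ng/ml (1 array each). Cells with the control shRNAs shRnd1 or shRnd2 received FGF4 at 20 ng/ml, LIF at 10 u/ml, or no growth factor (1 array of each shRNA per condition, 8 arrays in all). The 2 arrays of a group thus carry different shRNAs in one ES cell line, and no shRNA was repeated within a condition, so the spread behind each p-value joins the difference between the vectors with that between cultures and arrays.

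The knockdown itself could not be read: the only probe of Lamtor3, the gene of Mp1, a scaffold of MEK and ERK on late endosomes, gave 71.2 and 63.0 intensity units with the Mp1 shRNAs and lay between 63.8 and 70.2 on the other arrays, with detection p-values of 0.57 or more. No probe was named Fgf4 (0 probes). Between 15375 and 17813 probes were detected per array (detection p below 0.05), and the array number limits the precision of every value. The 2 Mp1 shRNA arrays were less alike than those of any other group: 28.5% of 14103 tested features were more than 1.5-fold apart on them, against 5.65% between the FGF4 arrays with control shRNAs, 12.2% between the LIF arrays and 3.96% between the arrays without growth factor. These arrays read RNA of whole cultures, so that fewer cells expressing a gene and less RNA per cell cannot be told apart.

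Of the 9 members, 6 had a probe that could be tested (detected on at least 2 of 8 arrays): Myl9, Myh9, Tpm1, Tpm2, Ccn1 and Ccn2. Of the 24 member probes, 8 were detected on all 8 arrays and 13 on none. Levels of different probes are not compared with each other here, because a probe's brightness depends on its sequence.

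**Figure D1:**
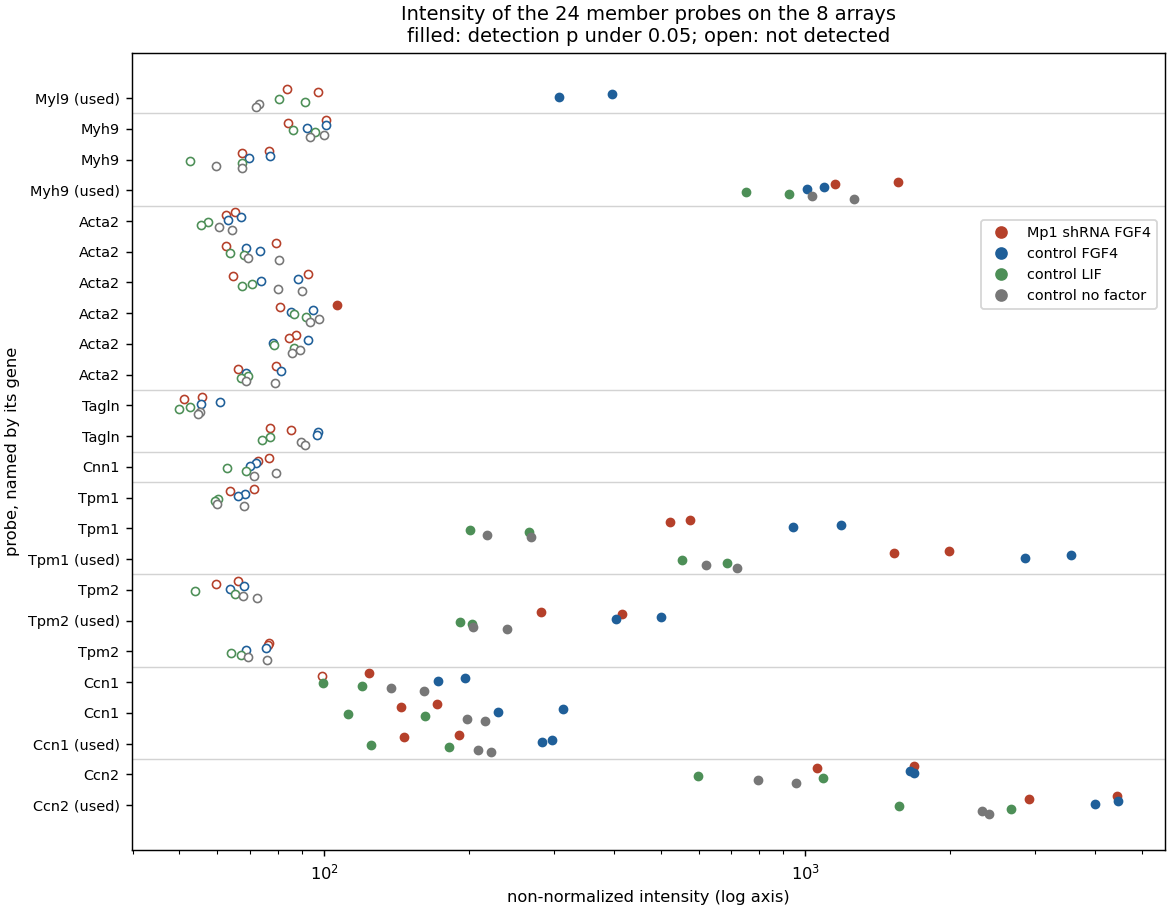
Non-normalized intensity (log axis) of each of the 24 probes of the 9 genes on the 8 arrays, 1 row per probe and 1 point per array, coloured by group; filled points have a detection p below 0.05 and "used" marks the probe tested for its gene. The Myl9 probe stands out from background in FGF4 with control shRNAs alone, at 396 and 307, while the probes of Acta2, Tagln and Cnn1 stay between 50.0 and 106.

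The promoters of 4 members are shown for the sites that SRF with MRTF, and TEAD with YAP, are known to read. They are the 250 bases before the annotated transcription start (RefSeq, GRCm38.p6): Myl9 at chr2:156775214-156775463 (+ strand), Tpm1 at chr9:67049214-67049463 (− strand), Ccn1 at chr3:145649986-145650235 (− strand) and Acta2 at chr19:34255374-34255623 (− strand). Capitals mark a CArG box, a CArG box with 1 G or C in its A/T stretch, or the TEAD hexamer GGAATG, read on the other strand as CATTCC; all were searched on both strands, and none of the matches overlap.
Myl9: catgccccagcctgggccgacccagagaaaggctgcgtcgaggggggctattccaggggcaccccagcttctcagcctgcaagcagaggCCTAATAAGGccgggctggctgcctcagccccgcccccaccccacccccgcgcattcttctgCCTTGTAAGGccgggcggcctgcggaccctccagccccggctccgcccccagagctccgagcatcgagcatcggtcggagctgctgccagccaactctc
Tpm1: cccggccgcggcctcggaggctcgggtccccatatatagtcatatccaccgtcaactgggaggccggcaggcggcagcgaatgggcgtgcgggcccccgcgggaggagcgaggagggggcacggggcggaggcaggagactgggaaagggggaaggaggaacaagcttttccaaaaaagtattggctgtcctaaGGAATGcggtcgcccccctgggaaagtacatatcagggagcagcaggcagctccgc
Ccn1: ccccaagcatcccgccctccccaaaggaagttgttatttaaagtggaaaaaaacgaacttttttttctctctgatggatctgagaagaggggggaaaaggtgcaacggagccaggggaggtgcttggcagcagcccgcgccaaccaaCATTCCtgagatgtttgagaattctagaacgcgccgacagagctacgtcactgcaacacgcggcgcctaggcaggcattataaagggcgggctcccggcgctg
Acta2: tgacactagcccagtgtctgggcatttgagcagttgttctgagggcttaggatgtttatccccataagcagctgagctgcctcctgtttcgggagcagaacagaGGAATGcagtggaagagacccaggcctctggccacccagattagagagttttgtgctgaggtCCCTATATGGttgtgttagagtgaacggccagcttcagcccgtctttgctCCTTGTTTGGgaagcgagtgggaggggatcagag
The Myl9 window holds a CArG box 161 to 152 bases before the start and 1 CArG-like match 99 to 90 bases before it. The Tpm1 window holds the TEAD hexamer 56 to 51 bases before the start, the Ccn1 window 103 to 98 bases before it, and the Acta2 window 146 to 141 bases before it, beside 2 CArG-like matches. Of the 9 members, 7 had an entry in the RefSeq set, and no such letters were found in the windows of Myh9, Cnn1 and Tpm2. Over the 32851 windows of the same length in the RefSeq set, 1.47% hold a CArG box, 7.24% a CArG-like match and 12.6% the TEAD hexamer. These matches describe the sequence, and no binding was measured in these samples.

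Myl9 was read by 1 probe and was detected on the FGF4 arrays with control shRNAs and on no others. In FGF4 its intensity was 83.5 on the shMp1Lib array and 97.2 on the shMP1G array, and 396 and 307 on the arrays with control shRNAs; it was 80.7 and 91.4 in LIF, and 73.3 and 72.3 without growth factor. The 2 FGF4 arrays with control shRNAs were thus far above the other 6, which did not leave background: the detection p there was 0.26 and 0.08 with the Mp1 shRNAs, 0.13 and 0.10 in LIF, and 0.44 and 0.66 without growth factor. After background correction, quantile normalization and log2, Myl9 averaged 5.02 ± 0.33 with the Mp1 shRNAs and 8.11 ± 0.22 with control shRNAs in FGF4, 5.20 ± 0.06 in LIF and 4.64 ± 0.06 without growth factor (SD, n = 2 each).

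Because the dimmer groups give Myl9 only an upper bound, its differences are stated as limits, taken against the lowest normalized signal of a detected probe on each dim array or the Myl9 value itself where that was higher. Myl9 was at least 6.76-fold lower with the Mp1 shRNAs than with control shRNAs in FGF4, a log2 difference of -3.09 in the measured means; this is the contrast on which the gene was picked. FGF4 with control shRNAs read at least 6.18-fold above no growth factor (log2 difference 3.47) and at least 5.77-fold above LIF (2.92), again without a test. These limits hold for the main processing only. Without background correction the log2 differences fell short of them, at -1.76 for the Mp1 shRNAs, 1.99 against no growth factor and 1.66 against LIF. Myl9 was detected neither in LIF nor without growth factor, so that comparison has no fold and no test. When ambiguous decimal points in the deposited table took the reading nearest the other arrays' median, these Myl9 differences came to -0.03 for the Mp1 shRNAs and 0.04 for FGF4 against no growth factor. That rule leaves the Myl9 intensities themselves as printed. It altered 312 cells of the whole table, and the inferred spread of the negative controls went from 10.7 to 15.3 units per array to 1162 to 1609. The 3 FGF4 differences rest on the same FGF4 arrays with control shRNAs and are not independent of one another.

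Myh9, the heavy chain of non-muscle myosin IIA, which the light chains bind, passed the threshold in none of the 3 comparisons in which it was tested. Its detected probe gave 1557 and 1150 intensity units with the Mp1 shRNAs and 1095 and 1006 with control shRNAs in FGF4, 754 and 922 in LIF, and 1032 and 1263 without growth factor. The groups lay close together on the normalized scale, with means of 10.11 ± 0.13 with the Mp1 shRNAs, 9.89 ± 0.04 with control shRNAs in FGF4, 9.95 ± 0.14 in LIF and 10.09 ± 0.13 without growth factor (SD, n = 2 each). FGF4 differed from no growth factor by -0.21 log2 units (95% interval -0.62 to 0.21, adjusted p = 0.541 in limma, with Benjamini-Hochberg adjustment over all features, as throughout) and from LIF by -0.07 (-0.48 to 0.34, adjusted p = 0.853 in limma), and LIF from no growth factor by -0.14 (-0.55 to 0.27, adjusted p = 0.890 in limma). The other 2 Myh9 probes were detected on no array, with intensities from 52.7 to 101.

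Of 7 further heavy and light chain genes of myosin II listed, 5 had a tested probe (Myh10, Myl6, Myl6b, Myl12a and Myl12b) and 2 were detected on no array; 0 of the 5 passed the threshold in FGF4 against no growth factor, where 15.6% of all features were called, in FGF4 against LIF (15.7%) or in LIF against no growth factor (0.00709%, with 7.34% at an unadjusted p under 0.05), a count near these shares for so few genes. Myl12a and Myl12b encode regulatory light chains closely related to Myl9. Myl12b read 11.46 and 12.25 with the Mp1 shRNAs, 12.10 and 12.10 with control shRNAs in FGF4, 11.91 and 11.93 in LIF, and 11.70 and 11.75 without growth factor (normalized log2). It was detected on all 8 arrays, and its arrays with the Mp1 shRNAs lay on either side of the controls. Myl12a read 7.30 and 7.95 with the Mp1 shRNAs and 8.20 and 8.04 with control shRNAs in FGF4. With the Mp1 shRNAs, 2 of the 5 genes (Myl6 and Myl12a) were lower without overlap (18.6% of all features) and 0 were higher (25.5%), without a test. Myl12a averaged 8.12 ± 0.11 in FGF4 with control shRNAs and 8.01 ± 0.05 without growth factor, a difference of 0.11 (SD, n = 2 each; adjusted p = 0.838 in limma). The median difference of the 5 genes was 0.22 in FGF4 against no growth factor and 0.01 in FGF4 against LIF, beside medians of -0.02 and -0.01 over all features.

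Tpm1, which codes for a tropomyosin of muscle and non-muscle cells, rose with FGF4, and its level with the Mp1 shRNAs was intermediate. Its brightest probe gave 1985 and 1527 intensity units with the Mp1 shRNAs and 3565 and 2863 with control shRNAs in FGF4, 554 and 686 in LIF, and 622 and 720 without growth factor. The Mp1 shRNA arrays lay between the FGF4 arrays with control shRNAs and the 4 arrays without FGF4, and overlapped with neither. The normalized means were 10.55 ± 0.12 with the Mp1 shRNAs, 11.54 ± 0.04 with control shRNAs in FGF4, 9.48 ± 0.13 in LIF and 9.29 ± 0.09 without growth factor (SD, n = 2 each).

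Tpm1 was 4.75-fold higher with FGF4 than without growth factor (log2 difference 2.25, 95% interval 1.85 to 2.65, adjusted p = 0.000126 in limma). It was 4.15-fold higher with FGF4 than with LIF (2.05, interval 1.65 to 2.45, adjusted p = 0.000226 in limma). Between LIF and no growth factor the difference was 0.20 (interval -0.20 to 0.60, adjusted p = 0.844 in limma). With the Mp1 shRNAs, Tpm1 was lower than with control shRNAs in FGF4 by 0.99 on the log2 scale (-0.99), a difference in the contrast used for the choice of genes and not tested. The 2 FGF4 calls held in all 17 alternative settings, with adjusted p-values of at most 0.00382 and 0.00548. With the other reading of ambiguous decimal points and its wider inferred spread of the negative controls, the Tpm1 difference between FGF4 and no growth factor was 0.37.

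A second Tpm1 probe gave the same order of groups, with 575 and 522 intensity units with the Mp1 shRNAs, 1186 and 943 with control shRNAs in FGF4, 201 and 267 in LIF, and 218 and 269 without growth factor. Taken as a feature of its own, it rose by 2.35 log2 units in FGF4 against no growth factor (adjusted p = 0.000152 in limma) and by 2.05 against LIF (adjusted p = 0.000353 in limma). The third Tpm1 probe was detected on no array, at 59.2 to 71.5 intensity units. The files do not say which Tpm1 transcripts each probe reads.

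Tpm2, the beta tropomyosin, had higher FGF4 means that did not pass the threshold. It gave 283 and 415 intensity units with the Mp1 shRNAs and 502 and 404 with control shRNAs in FGF4, 192 and 203 in LIF, and 204 and 240 without growth factor. The 2 Mp1 shRNA arrays disagreed: shMp1Lib read 7.29 on the normalized log2 scale, within the range without growth factor (7.28 and 7.48), and shMP1G read 8.40, next to the control FGF4 arrays at 8.65 and 8.42. FGF4 exceeded no growth factor by 1.16 (interval 0.37 to 1.95, adjusted p = 0.0564 in limma) and LIF by 0.99 (0.20 to 1.78, adjusted p = 0.0959 in limma). Over 17 alternative settings, each of these differences passed in 6 and did not in 11. Those that passed included array medians in place of quantiles and the omission of either Mp1 shRNA array. With that omission, the Mp1 group no longer added to the spread that all groups share. Those that did not pass included the omission of any one control shRNA array. The differences then ran from 1.05 to 1.27 against no growth factor and from 0.77 to 1.21 against LIF. The difference between LIF and no growth factor was 0.17 (-0.62 to 0.96, adjusted p = 0.923 in limma). The other 2 Tpm2 probes were detected on no array, at 54.0 to 76.9 intensity units.

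**Figure D2:**
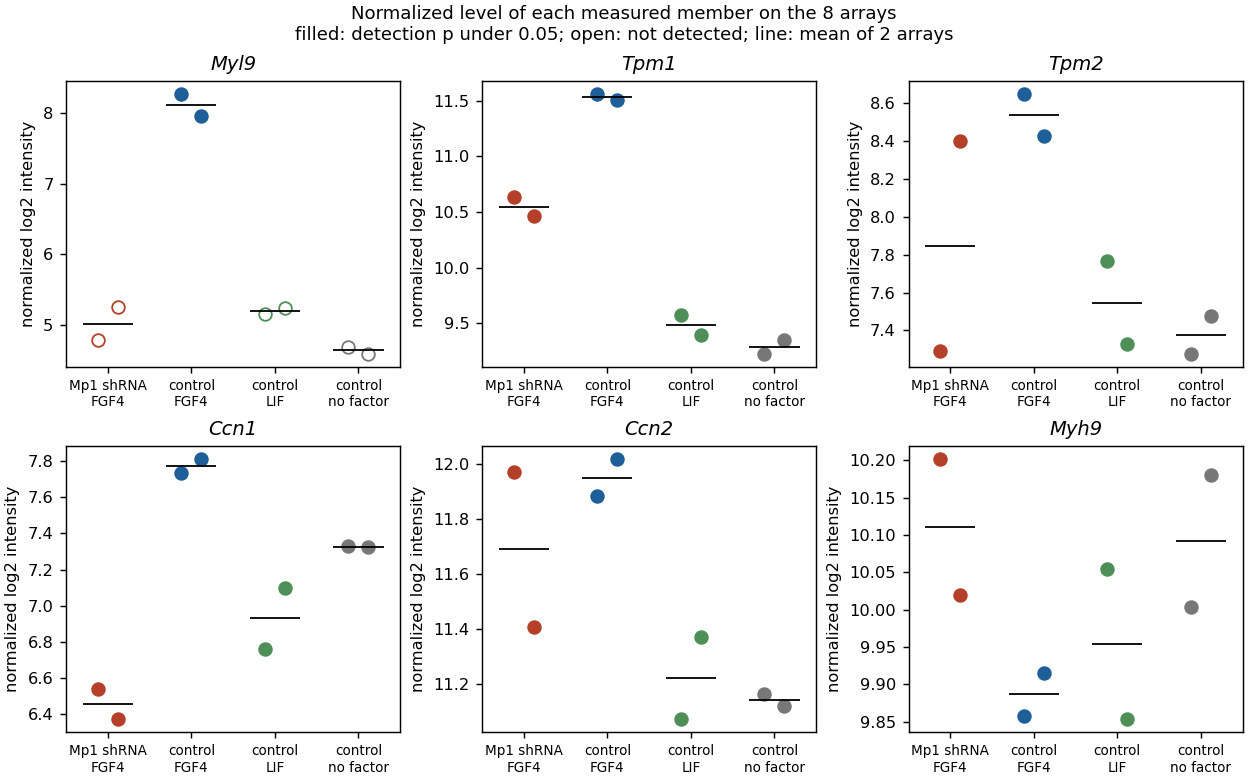
Normalized log2 intensity of the tested probe of each of the 6 measured genes, 1 point per array, by group; filled points were detected, open points were not, and the black line is the mean of the 2 arrays (each panel has its own axis). Myl9 is high in FGF4 with control shRNAs alone, at 8.27 and 7.96, Tpm1 takes an intermediate level with the Mp1 shRNAs, at 10.63 and 10.47, and Ccn1 with the Mp1 shRNAs is below every other array.

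The 3 remaining actin-linked members, classical markers of differentiated smooth muscle, could not be tested. Acta2, smooth muscle actin, had 6 probes, Tagln, the actin-bundling transgelin, had 2, and Cnn1, the basic calponin that inhibits the myosin ATPase, had 1. Their intensities ran from 50.0 to 106 with detection p-values from 0.04 to 1.0. A single Acta2 probe was detected on 1 array, that of shMp1Lib, at 106 intensity units, beside 81.1 with shMP1G, 94.96 and 85.25 for control shRNAs with FGF4, 86.4 and 91.7 in LIF, and 97.4 and 93.6 without growth factor. These 9 probes therefore show no change that can be read: their RNA was not detectable on these arrays, which is not evidence of absence.

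Ccn1, known also as Cyr61, binds integrins at the cell surface. It was detected on all arrays and was lowest with the Mp1 shRNAs on the normalized scale. Its brightest probe gave 191 and 147 intensity units with the Mp1 shRNAs and 297 and 283 with control shRNAs in FGF4, 125 and 182 in LIF, and 209 and 222 without growth factor. After normalization the values were 6.54 and 6.38 with the Mp1 shRNAs, 7.73 and 7.81 with control shRNAs in FGF4, 6.76 and 7.10 in LIF, and 7.33 and 7.32 without growth factor. No group overlapped another. Between the 2 groups with FGF4 this goes with the choice of Ccn1, and 18.6% of all features were likewise lower without overlap. The Mp1 shRNA arrays, which also served that choice, were below the cells without any growth factor too. The raw intensities of the Mp1 shRNA arrays overlapped those of LIF, so the order of these 2 groups depends on the normalization.

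The log2 difference of Ccn1 between the Mp1 shRNAs and the control shRNAs in FGF4 was -1.31, without a test, and its 2 other probes gave -1.40 and -1.30. FGF4 with control shRNAs differed from no growth factor by 0.45 and from LIF by 0.84, both untested. LIF against no growth factor uses no array that served the choice; there Ccn1 was 0.39 lower (-0.39, interval -0.82 to 0.03), with an adjusted p of 0.707 in limma. Its 2 other probes gave -0.47 and -0.59 in the same comparison, with adjusted p-values of 0.662 and 0.625 in limma.

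Ccn2, known also as CTGF, the connective tissue growth factor, rose with FGF4 by a small margin. It gave 4442 and 2908 intensity units with the Mp1 shRNAs and 4453 and 3997 with control shRNAs in FGF4, 1567 and 2671 in LIF, and 2325 and 2404 without growth factor. The shMp1Lib array was as bright as the control FGF4 arrays and the shMP1G array was not, so that these groups overlapped (normalized means 11.69 ± 0.40 and 11.95 ± 0.10, SD, n = 2 each; difference -0.26, or 0.02 without shMP1G and -0.54 without shMp1Lib). FGF4 exceeded no growth factor by 0.81 log2 units, a 1.75-fold difference (interval 0.29 to 1.33, adjusted p = 0.0470 in limma), and LIF by 0.73 (0.21 to 1.25, adjusted p = 0.0683 in limma). The first of these calls was lost in 9 of 17 alternative settings, among them the omission of any one of the 6 control shRNA arrays (adjusted p from 0.0599 to 0.235). A second Ccn2 probe gave 0.89 against no growth factor (adjusted p = 0.0334 in limma) and 0.69 against LIF (adjusted p = 0.0833 in limma). For the Mp1 shRNAs against control shRNAs in FGF4 this probe gave -0.46, without a test. Its normalized values did not overlap there, at 10.33 and 9.91 against 10.46 and 10.70. Its raw intensities did, at 1679 with shMp1Lib and 1647 with shRnd1. LIF and no growth factor differed by 0.08 (-0.44 to 0.60, adjusted p = 0.944 in limma).

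Counted over the members, 2 of the 4 tested in FGF4 against no growth factor rose, Tpm1 and Ccn2, where 15.6% of all features were called and 7.84% were called higher. In FGF4 against LIF, 1 of 4 rose, Tpm1, where 15.7% of all features were called and 7.97% were called higher. In LIF against no growth factor 0 of the 5 members detected there passed in limma; 0.00709% of features were called there, with 7.34% at an unadjusted p under 0.05. With the Mp1 shRNAs, Myl9 and Ccn1 were lower than with control shRNAs in FGF4 by the choice of genes. Of the 4 other measured members, 2 (Tpm1 and Tpm2) were lower without overlap, a pattern shared by 18.6% of all features, and 1 (Myh9) was higher without overlap, as were 25.5%. The nearest Tpm2 arrays of the 2 groups read 8.40 and 8.42, and their raw intensities overlapped, at 415 with shMP1G and 404 with shRnd2. Over all features 0.0993% were called in that contrast. The median difference of the tested members was 0.98 in FGF4 against no growth factor (4 genes), 0.86 against LIF (4 genes) and 0.08 in LIF against no growth factor (5 genes), beside -0.02, -0.01 and 0.0039 over all features.

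**Figure D3:**
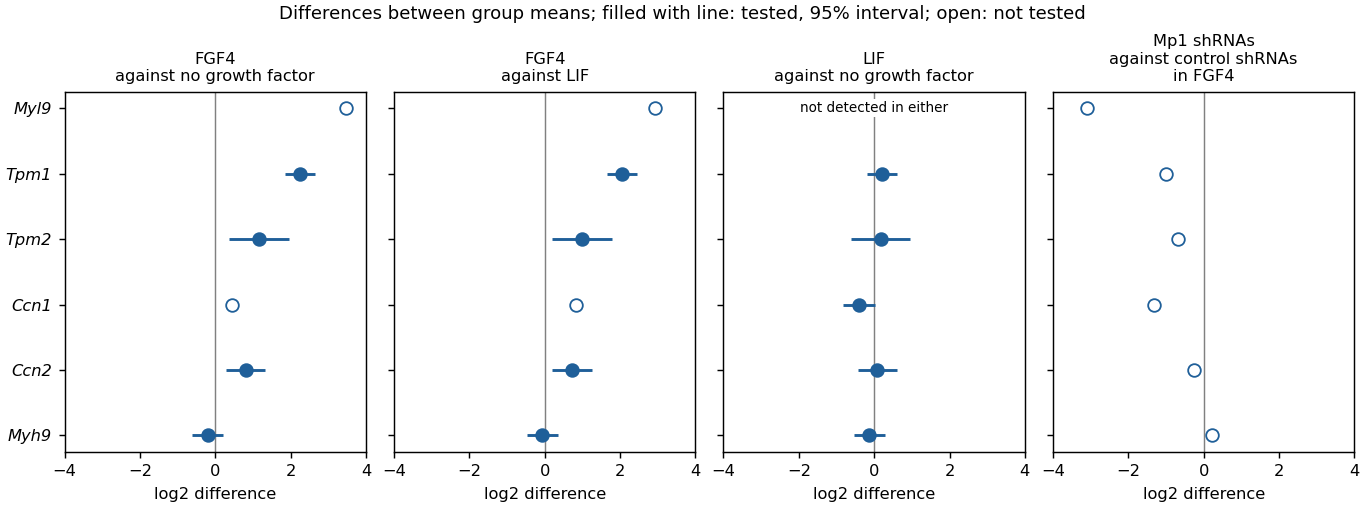
Log2 difference between group means (horizontal axis) of the 6 measured genes in the 4 comparisons; filled points with a 95% interval were tested in limma, and open points were not, because those arrays served to choose the genes. Tpm1 lies at 2.25 and 2.05 with FGF4, with intervals clear of 0, while every tested interval for Myh9 includes 0; Myl9 has no point in LIF against no growth factor, where it was not detected in either group.

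Among the other actin filament proteins, 5 of 15 tested rose in FGF4 against no growth factor and 0 fell, where 7.84% of all features rose and 7.79% fell. Against LIF 4 of the 15 rose and 0 fell, where 7.97% of all features rose and 7.71% fell. Of the 25 genes listed, 19 had a named probe and 2 of these were detected on no array. Zyx, the zyxin of focal adhesions and stress fibres, read 10.36 and 10.03 with the Mp1 shRNAs, 10.54 and 10.46 with control shRNAs in FGF4, 8.28 and 8.16 in LIF, and 8.45 and 8.45 without growth factor. It was high on all 4 arrays that received FGF4. Its difference was 2.05 against no growth factor (adjusted p = 0.000235 in limma) and 2.28 against LIF (adjusted p = 0.000190 in limma).

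Pdlim7, a PDZ and LIM protein that binds tropomyosin, read 10.07 and 10.22 with the Mp1 shRNAs and 10.37 and 10.48 with control shRNAs in FGF4, against 8.97 and 8.72 in LIF and 8.59 and 8.62 without growth factor, a rise of 1.82 over no growth factor (adjusted p = 0.000349 in limma). Tagln2, the transgelin of non-muscle cells, rose by 1.21 over no growth factor (adjusted p = 0.00890 in limma) and by 1.64 over LIF (adjusted p = 0.00229 in limma). Tpm4, a tropomyosin of non-muscle cells, rose by 1.06 over no growth factor and by 1.22 over LIF (adjusted p = 0.0175 and 0.00965 in limma). Relatives of Tpm1 and of the undetected Tagln were thus among the genes that rose. Not every tested tropomyosin did: Tpm3 differed by -0.24 from no growth factor and by 0.20 from LIF (adjusted p = 0.743 and 0.771 in limma). Over no growth factor, the calls of Tagln2 and Tpm4 were lost without any one of the FGF4 or no growth factor arrays with control shRNAs (adjusted p of up to 0.0768 for Tagln2 and 0.143 for Tpm4), while Zyx and Pdlim7 passed in all 17 alternatives.

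Cnn2, a calponin of non-muscle cells, rose by 0.87 over no growth factor (adjusted p = 0.0129 in limma; up to 0.118 without the shRnd1 array in FGF4 or either array without growth factor). It read 7.44 and 7.34 with the Mp1 shRNAs, 8.25 and 7.97 with control shRNAs in FGF4, 7.68 and 7.56 in LIF, and 7.28 and 7.20 without growth factor. Its Mp1 shRNA arrays lay between the LIF arrays and those without growth factor. With the Mp1 shRNAs, 5 of the 15 genes were lower than with control shRNAs in FGF4 without overlap (18.6% of all features) and 0 were higher (25.5%). Their median difference was -0.28, beside 0.05 over all features and -0.05 over the named features, to which these genes belong. The median of the 15 was 0.36 in FGF4 against no growth factor and 0.29 against LIF.

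Of the SRF and MRTF factors, 3 of 8 passed the filter on dim probes and 4 were detected on no array. Srf itself read 9.59 ± 0.14 with the Mp1 shRNAs, 9.81 ± 0.18 with control shRNAs in FGF4, 9.87 ± 0.11 in LIF and 9.72 ± 0.01 without growth factor (SD, n = 2 each), with an adjusted p of 0.850 in limma for FGF4 against no growth factor. Fhl2, a LIM protein that binds SRF, was not well above background in FGF4 and was at least 1.12-fold lower there than without growth factor (normalized means 4.75 ± 0.09 in FGF4 and 5.63 ± 0.02 without growth factor, SD, n = 2 each), without a test, since it was detected on the 2 arrays without growth factor alone.

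In the YAP, TAZ and TEAD pathway, 2 of 12 tested genes fell in FGF4 against no growth factor and 0 rose, beside 7.79% and 7.84% of all features, and both were TEAD factors. Tead4 read 6.60 and 6.63 with the Mp1 shRNAs, 6.08 and 6.15 with control shRNAs in FGF4, 7.53 and 7.53 in LIF, and 7.68 and 7.64 without growth factor, and fell by 1.54 (-1.54, adjusted p = 0.000502 in limma). Tead1 fell by 0.73 (-0.73, adjusted p = 0.0203 in limma), and against LIF Tead4 and Tead1 fell by 1.41 and 0.86 (adjusted p = 0.000845 and 0.0104 in limma). Without any one array of the groups compared, the Tead1 calls were lost (adjusted p of up to 0.179 against no growth factor and 0.197 against LIF), and those of Tead4 held in all 17 alternatives. Tead2 differed by 0.48 from no growth factor, with an adjusted p of 0.101 in limma. Amotl2, an angiomotin that binds YAP and is also listed as a YAP target, rose by 0.84 against LIF (adjusted p = 0.0424 in limma; lost in 9 of 17 alternatives, among them the omission of any one of the 6 control shRNA arrays, with adjusted p-values of up to 0.256).

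Of the YAP target genes other than Ccn1 and Ccn2, 3 of 9 tested rose in FGF4 against no growth factor (7.84% of all features), 4 of 9 rose against LIF (7.97%) and 0 fell in either. Igfbp3, a binding protein of insulin-like growth factors, read 8.05 and 7.63 with the Mp1 shRNAs, 8.26 and 8.61 with control shRNAs in FGF4, 6.52 and 6.56 in LIF, and 5.74 and 5.91 without growth factor, a rise of 2.61 over no growth factor (adjusted p = 0.000163 in limma). Fjx1, a secreted relative of the Drosophila kinase four-jointed, rose by 2.03 (adjusted p = 0.000962 in limma), against a group in which it was detected on 1 of 2 arrays. Axl, a receptor tyrosine kinase, rose by 0.96 (adjusted p = 0.0392 in limma; lost in 8 of 17 alternatives, among them the omission of any one FGF4 or no growth factor array with control shRNAs, with adjusted p-values of up to 0.240). Ankrd1, a widely used YAP target, differed by -0.05 from no growth factor (adjusted p = 0.944 in limma). The median of the 9 was 0.26, beside -0.02 over all features. The 3 other CCN genes with a named probe were detected on no array.

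**Figure D4:**
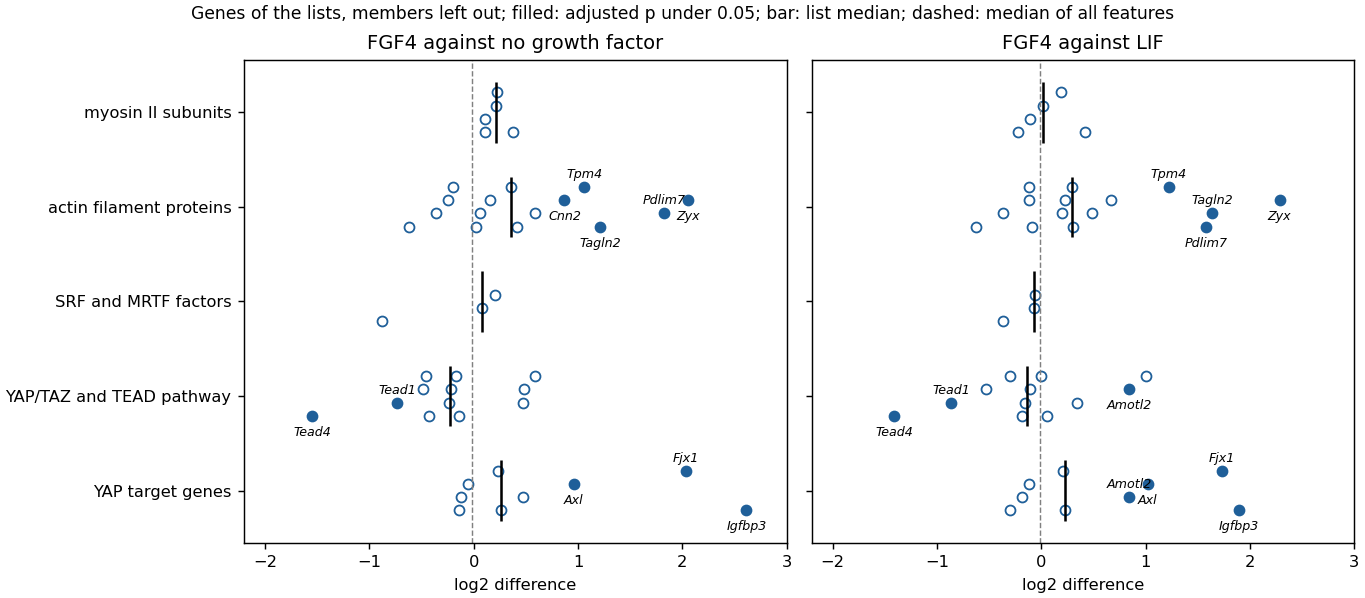
Log2 difference of each tested gene of 5 lists, the 9 members left out, in FGF4 against no growth factor (left) and FGF4 against LIF (right); filled, named points passed an adjusted p of 0.05 in limma and were detected in both groups, the bar is the list's median and the dashed line the median of all features. Zyx, Pdlim7, Tagln2 and Tpm4 stand to the right in both panels and Tead4 and Tead1 to the left, while 0 of the 5 myosin II subunits passed.

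Markers of cell types that use these genes were read on the same arrays. Of 11 smooth muscle markers, 7 were detected on no array (Myh11, Lmod1, Synpo2, Myocd, Mylk, Actg2 and Kcnmb1), and the summed linear level of the 11 ran from 868 to 1011 with the Mp1 shRNAs, 986 to 1016 with control shRNAs in FGF4, 721 to 769 in LIF and 803 to 821 without growth factor. Desmin (Des) rose by 0.75 in FGF4 against LIF (adjusted p = 0.0285 in limma; up to 0.171 without any one control shRNA array), as 1 of 4 tested. Of 10 fibroblast markers with a probe, 8 were detected on no array, among them Col1a1, Col1a2 and Col3a1, and the sums were 379 to 488 with the Mp1 shRNAs, 434 to 449 with control shRNAs in FGF4, 339 to 440 in LIF and 363 to 377 without growth factor. Of 12 striated muscle markers with a probe 6, and of 8 endothelial markers 4, were detected on no array. Of 7 ES cell markers with a probe, 6 were detected on both arrays of every group, among them Pou5f1; Esrrb was not. Klf4, a factor of naive pluripotency, read 7.31 and 8.31 with the Mp1 shRNAs, 7.63 and 7.76 with control shRNAs in FGF4, 10.31 and 9.69 in LIF, and 10.35 and 10.09 without growth factor. It fell by 2.52 in FGF4 against no growth factor (-2.52, adjusted p = 0.00165 in limma), while Utf1 and Lin28a, also expressed in ES cells, rose by 1.62 and 1.04 (adjusted p = 0.00365 and 0.00662 in limma); the Lin28a call was lost without either FGF4 array with control shRNAs or the first array without growth factor (up to 0.0764), and that of Utf1 with the other reading of ambiguous decimal points (0.110).

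Of the endothelial markers, Pecam1, which ES cells express too, fell by 1.66 (-1.66, adjusted p = 0.00153 in limma) and Tek, an angiopoietin receptor, by 1.13 (-1.13, adjusted p = 0.00365 in limma) in FGF4 against no growth factor. Pecam1 was detected on 1 of 2 FGF4 arrays with control shRNAs. The other tested endothelial markers went the other way. Egfl7 was higher by 0.84 (adjusted p = 0.0821 in limma). Esam, not detected without growth factor, was at least 1.26-fold higher in FGF4, without a test. The summed level of the endothelial markers ran from 1947 to 3299 with the Mp1 shRNAs and from 3139 to 3313 with control shRNAs in FGF4. It ran from 2372 to 2693 in LIF and from 1992 to 2183 without growth factor. Most of this sum was Egfl7, which did not pass, with normalized means of 11.52 in FGF4 with control shRNAs and 10.68 without growth factor. In FGF4 against no growth factor, 2 fibroblast markers were tested. Fibronectin (Fn1), detected on 1 of 2 FGF4 arrays with control shRNAs, fell by 0.98 (-0.98, adjusted p = 0.0112 in limma). That call was lost without the first FGF4 array with control shRNAs, without either array without growth factor, and with the other reading. Thy1 was higher by 1.41 and did not pass (adjusted p = 0.0636 in limma). The sum of the smooth muscle markers was higher in FGF4 with control shRNAs than in LIF or without growth factor through desmin, also a striated muscle marker: without it the sum was 329 to 358 with the Mp1 shRNAs, 357 to 366 with control shRNAs in FGF4, 348 to 381 in LIF and 343 to 397 without growth factor, and these ranges overlapped. The part of these marker differences in the Tpm1 and Ccn2 differences was not tested.

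The profiles most like that of Myl9 were sought among the 8932 other named features, by the root mean square difference of the log2 values, each centred on its own mean, over the 8 arrays. The 5 nearest were Fgfbp1 at 0.61, Cxcl16 at 0.61, Sfn at 0.61, Rgs17 at 0.64 and Sct at 0.67 log2 units. Fgfbp1, a secreted carrier of FGFs, averaged 6.91 with the Mp1 shRNAs, 8.63 with control shRNAs in FGF4, 7.05 in LIF and 5.77 without growth factor. Cxcl16, a membrane-bound chemokine, averaged 6.09 with the Mp1 shRNAs, 7.65 with control shRNAs in FGF4, 4.88 in LIF and 4.91 without growth factor. That these genes were highest in FGF4 with control shRNAs follows from the choice by likeness, and 6 of the 8 Myl9 values behind it were not above the detection threshold. Among the members, Tpm1 came nearest, at rank 15 with 0.78, followed by Tpm2 at rank 185.

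For Ccn1 the 5 nearest profiles were those of Rab38 at 0.18, Pinx1 at 0.26, Tmem185a at 0.27, Zfp444 at 0.28 and Vgll3 at 0.28 log2 units. Rab38, a small GTPase of melanosome biogenesis, averaged 5.58 with the Mp1 shRNAs, 6.52 with control shRNAs in FGF4, 5.91 in LIF and 6.11 without growth factor. Vgll3 is a vestigial-like cofactor of TEAD factors; it averaged 5.95 with the Mp1 shRNAs, 6.56 with control shRNAs in FGF4, 5.98 in LIF and 6.39 without growth factor. Ccn2, the other CCN member measured, ranked 2934 of 8932 for likeness to Ccn1, at 0.53 log2 units, and Myl9 ranked 8767.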

How the data were processed

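Total RNA from 8 cultures was hybridised to Illumina bead arrays after amplification, per the labels' protocols. The deposited non-normalized table holds 1 intensity and 1 detection p-value per probe and array, per the file headers; how background was handled before deposit is not stated in the labels. In 294271 of its 362248 intensity cells (81.2%) the decimal point had been lost and commas put in. Each was restored to the reading its digits allow; where 2 were possible (207073 cells), the detection p-value of the cell decided. The deposited value table of processed intensity was not used for values: its probe identifiers did not match the genes. Ribosomal protein probes had a median percentile of 99.6 in the non-normalized table and of 55.2 in the value table, whose columns have medians of 82.4 to 82.6. The value table is described as quantile normalized by the authors, and its scale and centring stay unknown.

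Intensities were corrected by normexp, the negative controls being estimated through the detection p-values (offset 16), quantile normalized and put on the log2 scale (neqc, limma 3.58.1, R 4.3.3). Features with a detection p below 0.05 on at least 2 arrays were kept, with the brightest probe per symbol, leaving 14103 features of which 8933 are named. Group means were fitted to all 8 arrays in limma (lmFit, eBayes, two-sided, 4 residual degrees of freedom) and p-values adjusted by Benjamini-Hochberg over all features, with a threshold of 0.05. The script was tested on simulated data.

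Symbols came from the platform annotation: 32245 probes have 1 symbol, 17 several and 13019 none, and 32170 of the named ones matched RefSeq (GRCm38.p6). The treatment note gives 1 control shRNA for both LIF samples, but the sample titles name shRnd1 and shRnd2, and were followed here. The members and gene lists were chosen with earlier results of these data known. The genes named are the 9 members, up to 4 genes past the threshold per list and comparison, and the 5 profiles nearest to Myl9 and to Ccn1. Myh10, Myl6, Myl6b, Myl12a, Myl12b, Tpm3, Cnn2, Srf, Tead2, Ankrd1 and the cell type markers named were added after their values were seen. The list of myosin II regulators is not reported here. Slide and scan were not given in the sources used here, so a batch was not tested.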

Additional observations from a re-analysis of the deposited data

How the results depend on the processing

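The direction of the differences of Tpm1, Tpm2 and Ccn2 in FGF4 against no growth factor and against LIF held in all 17 alternatives, and so did that of Myl9 and Ccn1 wherever a value was given; Myl9 has none when detection on at least 4 arrays is required, because it was detected on 2. Differences near 0 changed sign. With array medians in place of quantiles, which moved the median of all features by -0.19 in LIF against no growth factor and by 0.21 in FGF4 against LIF, Myh9 was 0.21 in FGF4 against LIF, and Tpm1 was -0.039, Tpm2 -0.089 and Ccn2 -0.13 in LIF against no growth factor. Leaving out 1 array moved Myh9 between -0.17 and 0.033 in FGF4 against LIF, Tpm2 between -0.050 and 0.39 and Ccn2 between -0.068 and 0.23 in LIF against no growth factor, with the change of sign without the first LIF array for Myh9 and Tpm2 and without the second for Ccn2; with the Mp1 shRNAs Ccn2 moved between -0.54 and 0.022. The cause of these sign changes was not tested.

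Over all features, 2205 were called in FGF4 against no growth factor, 3858 with only the 2 groups compared, 4112 with array weights and 1305 with the other reading of ambiguous decimal points; leaving out 1 array gave 1008 to 3232. In FGF4 against LIF, 2212 were called (50.8% of them higher), 1728 with array medians (70.1% higher), 1245 with the other reading, and 981 to 3325 without 1 array. In LIF against no growth factor, 1 was called, 2 with array medians, 3 without a filter on dim probes, 33 with array weights, 3 with the other reading, and 1 to 19 without 1 array. With the Mp1 shRNAs, 14 were called, 4 with array medians, 0 with only the 2 groups compared, 2 with array weights, and 0 to 2841 without 1 array. The other reading took the value nearest the other arrays' median against the detection p-value of 312 cells; it gave an inferred spread of the negative controls of 1162 to 1609 units per array, against 10.7 to 15.3, and with it the Myl9 differences shrank to 0.04 for FGF4 against no growth factor and -0.03 for the Mp1 shRNAs, and that of Tpm1 to 0.37 for FGF4 against no growth factor.

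Same-numbered control arrays did not deviate together (correlations of -0.08 for FGF4 and LIF, -0.07 for FGF4 and no growth factor, 0.04 for LIF and no growth factor), so the shRNA numbers are not taken to pair the samples. With the replicate block by shRNA number over the 6 control arrays, 2975 features were called in FGF4 against no growth factor, 1 in LIF against no growth factor and 3076 in FGF4 against LIF; Tpm2 then passed against both (adjusted p = 0.00809 and 0.0148 in limma), as did Ccn2 against LIF (0.0239).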
